A study of Mus musculus with 2 samples.

Results

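Chromatin remodellers are enzyme complexes that use ATP to slide, eject or restructure nucleosomes. The genes described here are 42 mouse remodeller genes, chosen by symbol from a fixed list: 24 of SWI/SNF, 7 of the CHD family, 5 of ISWI, 3 ATPases of the INO80 class and 3 MTA genes. They are 42 of the 34745 Ensembl genes listed for each library, and each symbol matched exactly 1 of them. SWI/SNF opens promoters and enhancers, ISWI spaces nucleosomes, CHD proteins read or shape active and repressed chromatin, and the INO80 class exchanges histone variants. In macrophages that respond to bacterial lipopolysaccharide (LPS), SWI/SNF is known for remodelling the promoters of late-induced inflammatory genes, and the CHD4-containing NuRD complex for restraining some of the same genes. MTA proteins are scaffold subunits of NuRD rather than remodelling enzymes.

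Messenger RNA was sequenced from thioglycollate-elicited peritoneal macrophages of C57BL/6 mice, in 1 library labelled Kdm2b-/- (called KO-labelled below) and 1 wild-type library. Thioglycollate is an irritant that draws macrophages into the peritoneal cavity; cells were collected 4 days later and both libraries were treated with 100 ng/ml LPS, for 4 h by the sample characteristics and for 3 h by the treatment protocol. The sources used here do not give how the knockout was made, the animals' age or the number of animals per library. With 1 library per group there is no replicate error and no test, so every difference below describes these 2 libraries.

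Depth, as estimated from the values, was about 26800000 fragments in the KO-labelled library and 27300000 fragments in the wild-type library. Kdm2b itself, the gene named in the label, stood at 0.326 FPKM (a fragment count scaled by transcript length and library size) in the KO-labelled library and 0.205 FPKM in the wild-type library, from about 45 fragments in the KO-labelled and 29 in the wild-type library, so the label was not borne out by a lower transcript level; the plain log2 ratio had a counting interval of -0.05 to 1.38. The libraries also differed in sex-linked transcripts. Xist, expressed from the inactive X chromosome of females, stood at 0.00398 FPKM in the KO-labelled library and 8.55 FPKM in the wild-type library, and the Y-linked Ddx3y at 5.72 FPKM in the KO-labelled library and at 0 in the wild-type library. None of the remodeller genes lies on X or Y (0 of 42), but the label and these sex-linked transcripts cannot be told apart as sources of any difference. All 8 macrophage markers were expressed, from 11.6 to 11409 FPKM in the KO-labelled library and from 12.0 to 8945 FPKM in the wild-type library. The summed level of 6 B cell markers was 2.86 FPKM in the KO-labelled library and 27.3 FPKM in the wild-type library. Igkc and Ighm made up most of both sums. The 7 T and NK cell markers summed to 0.136 FPKM in the KO-labelled library and 0.193 FPKM in the wild-type library. The 6 mast cell and eosinophil markers, mostly Siglecf, summed to 0.987 FPKM in the KO-labelled library and 2.003 FPKM in the wild-type library. Of 7 neutrophil markers 3 (Ly6g, Mpo and Retnlg) were listed at 0 in both, while S100a8 stood at 14.56 FPKM in the KO-labelled library and 13.82 FPKM in the wild-type library. The 11 fibroblast and mesothelial markers summed to 388 FPKM in the KO-labelled library and 339 FPKM in the wild-type library, sums set mostly by Dcn. Of these markers 8 were higher in the KO-labelled library and 3 (Lum, Msln and Krt19) were lower. At least 2-fold higher were 3 collagen genes: Col1a1 (15.98 FPKM in the KO-labelled library and 3.63 FPKM in the wild-type library), Col1a2 and Col3a1. The 8 markers of dividing cells summed to 119 FPKM in the KO-labelled library and 144 FPKM in the wild-type library, sums set mostly by Pcna, but 5 of the 7 past 1 FPKM were higher in the KO-labelled library, with a median log2 ratio of 0.29. The part of other cells in the results below was not tested. In bulk RNA, fewer cells of a type and less RNA per cell cannot be told apart.

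Remodeller transcripts were moderately abundant and, in most cases, slightly higher in the KO-labelled library. In plain FPKM, 35 of the 42 genes were higher there and 7 were higher in the wild-type library. Of all 34745 listed genes 31.2% were higher there, a share lowered by silent genes. Of the 34267 with an annotated length, 17148 were at 0 in both libraries. Further comparison used a floor of 1 FPKM on the mean of both libraries, reached by 35 of the 42 genes and by 9038 of all genes. Srcap and Rsf1 were under 1 FPKM in the wild-type library and passed through their KO-labelled value. Differences are given as the log2 ratio of the KO-labelled over the wild-type value after adding 1 FPKM to each, a scale that understates differences of low genes. On that scale the 35 genes had a median of 0.32 and ran from -0.65 to 0.61, and 30 of them lay above 0 (85.7%, against 63.2% of all genes past the floor, whose median was 0.10). The other 5 lay below 0, where 36.8% of all genes did. None was 2-fold apart; of all genes, 0.863% were 2-fold or more above the wild-type value and 1.02% were that far below it. At 1.5-fold, 1 member was higher (2.86%, against 4.7% of all genes) and 1 was lower (2.86%, against 2.8%), shares close to the background. The higher one was Arid1a and the lower one Ss18, both of SWI/SNF.

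**Figure D1:**
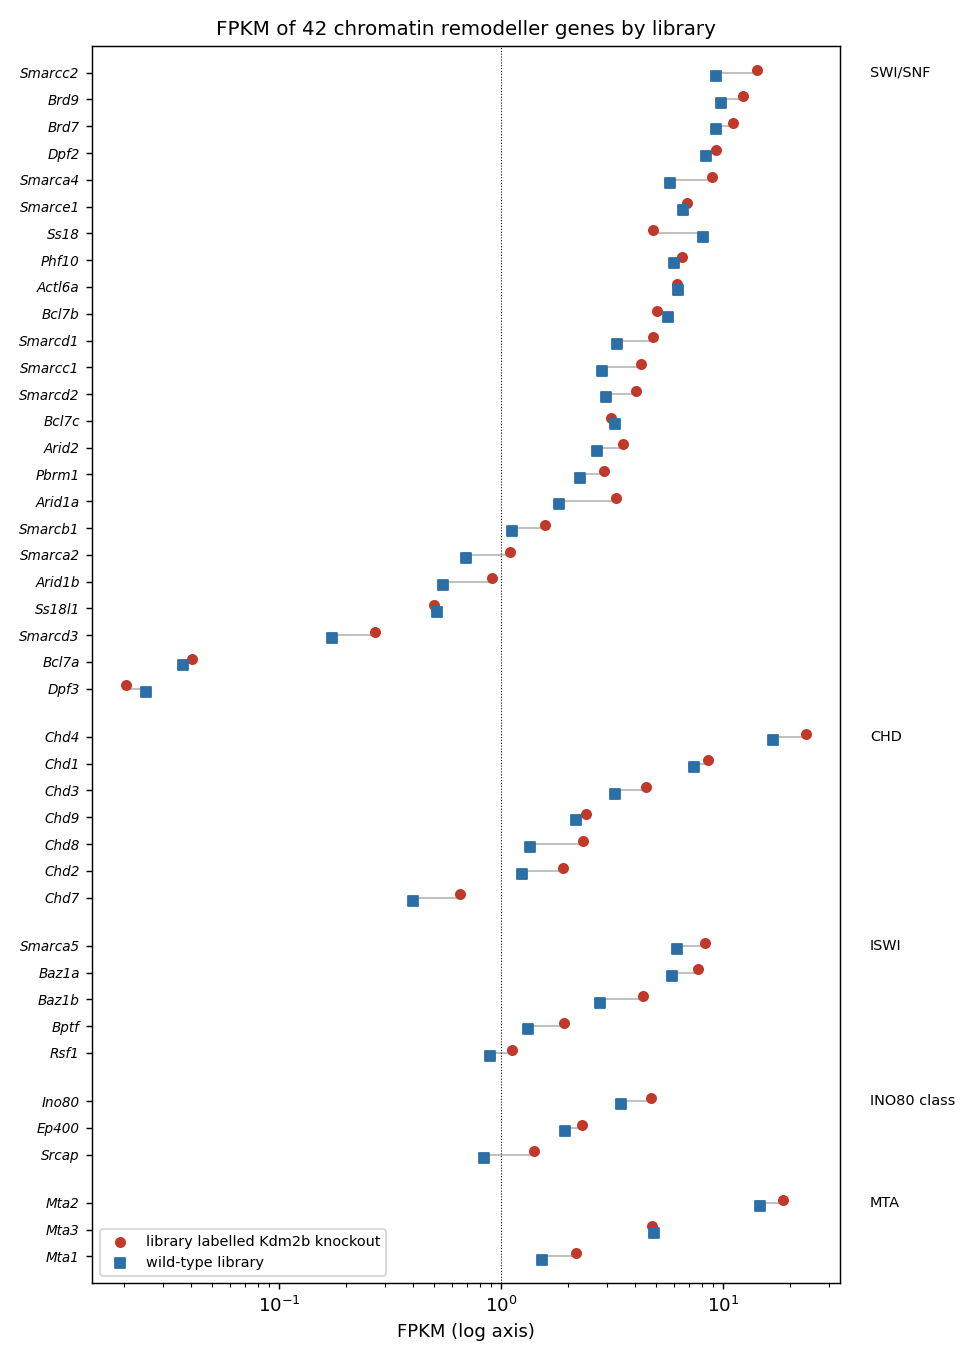
FPKM (log axis) of all 42 genes, grouped by family and ordered by mean level within it; red circles are the KO-labelled library and blue squares the wild-type library, and the dotted line marks 1 FPKM. Most circles lie slightly right of their squares, Chd4 is the highest (23.6 FPKM in the KO-labelled library and 16.8 FPKM in the wild-type library), and Ss18 shows the opposite order (4.82 FPKM in the KO-labelled library and 8.13 FPKM in the wild-type library).

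The SWI/SNF motor is 1 of 2 alternative ATPases. Smarca4, which encodes BRG1 (ENSMUSG00000032187, GRCm38 chromosome 9, 21616169 to 21704230, plus strand), stood at 8.92 FPKM in the KO-labelled library and 5.75 FPKM in the wild-type library, from about 1525 fragments in the KO-labelled and 998 in the wild-type library. Its log2 ratio was 0.56, just short of the 1.5-fold line at 0.585. The plain FPKM ratio was 1.55, and its log2 value of 0.64 had a 95% counting interval, which covers the sampling of fragments only, of 0.52 to 0.75. Smarca2, which encodes the alternative ATPase BRM, was much lower, at 1.099 FPKM in the KO-labelled library and 0.693 FPKM in the wild-type library, with a mean under the 1 FPKM floor. Its plain log2 ratio of 0.67 had an interval of 0.31 to 1.02, from about 174 fragments in the KO-labelled library and 112 in the wild-type library. Smarca2 has 46 annotated transcripts, and with their median length in place of the longest the interval held 0. The 2 ATPases were both higher in the KO-labelled library, and their balance was close: Smarca4 made up 89.03% of their summed FPKM in the KO-labelled library and 89.2% in the wild-type library.

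The scaffold pair, on which the SWI/SNF core assembles, was also higher in the KO-labelled library. Smarcc2 was the most abundant SWI/SNF gene of the list, at 14.1 FPKM in the KO-labelled library and 9.24 FPKM in the wild-type library (a log2 ratio of 0.56, about 1729 fragments in the KO-labelled and 1149 in the wild-type library, plain interval 0.51 to 0.72). Smarcc1 stood at 4.26 FPKM in the KO-labelled library and 2.85 FPKM in the wild-type library (a log2 ratio of 0.45). Smarcc2 held 76.8% of the pair's FPKM in the KO-labelled library and 76.5% in the wild-type library, so both scaffolds kept close to the same proportion. Smarcb1, a core subunit that contacts the nucleosome, stood at 1.57 FPKM in the KO-labelled library and 1.12 FPKM in the wild-type library (0.28).

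KDM2B, the protein named in the label, has a zinc finger that binds unmethylated CpG dinucleotides, and so the CpG content of the remodeller promoters was described. RefSeq windows of 300 bases on GRCm38.p6 (250 before and 50 from the annotated start) were available for 31 of the 42 genes, 35 windows in all. The motif was the dinucleotide CG, which reads the same on both strands. Members had a median of 32 CG per window, against 21 in 8786 windows of genes past the floor and 7 in all 32851 windows; at least 15 CG were present in 94.3% of the members' windows, in 69.8% of those of genes past the floor and in 34.6% of all. TATAAA on either strand occurred in 1 of the members' 35 windows, that of Smarcd2 (2.86%, against 7.33% for genes past the floor and 13.6% for all). In the 30 windows of members past the floor, 93.3% had at least 15 CG and 3.33% had TATAAA. Counts of letters say nothing on methylation or on binding in these cells. Windows of Smarca4 (chr9:21615919-21616218, plus strand, 33 CG) and Smarcc2 (chr10:128458986-128459285, plus strand, 48 CG) are shown as CpG-rich members with a high ratio, and Smarcd2 (chr11:106267583-106267882, minus strand, 4 CG) as a CpG-poor member; they read 5′ to 3′ along the gene, with each CG in capitals. The Smarcd2 window starts from the RefSeq start site, whereas the GENCODE gene begins further upstream, at 106272972.
Smarca4: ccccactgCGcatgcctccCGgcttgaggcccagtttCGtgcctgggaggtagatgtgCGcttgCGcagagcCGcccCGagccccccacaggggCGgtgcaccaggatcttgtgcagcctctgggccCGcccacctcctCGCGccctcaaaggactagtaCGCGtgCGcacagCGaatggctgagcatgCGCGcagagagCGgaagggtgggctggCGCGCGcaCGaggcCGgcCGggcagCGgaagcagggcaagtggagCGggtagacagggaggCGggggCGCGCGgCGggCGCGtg
Smarcc2: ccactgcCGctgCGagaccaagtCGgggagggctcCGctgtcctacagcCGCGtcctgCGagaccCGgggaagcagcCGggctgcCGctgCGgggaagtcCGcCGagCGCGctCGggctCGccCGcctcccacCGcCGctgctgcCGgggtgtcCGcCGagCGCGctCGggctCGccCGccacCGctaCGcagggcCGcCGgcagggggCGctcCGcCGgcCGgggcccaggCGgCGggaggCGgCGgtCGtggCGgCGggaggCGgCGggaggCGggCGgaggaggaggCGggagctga
Smarcd2: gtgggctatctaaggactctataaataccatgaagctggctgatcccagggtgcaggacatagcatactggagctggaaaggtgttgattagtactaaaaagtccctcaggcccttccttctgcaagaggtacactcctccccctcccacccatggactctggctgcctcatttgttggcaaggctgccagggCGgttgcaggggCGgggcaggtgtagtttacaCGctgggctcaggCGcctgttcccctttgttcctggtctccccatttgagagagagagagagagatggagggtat
Smarca4 and Smarcc2 carry CG along most of the window, whereas Smarcd2 holds its 4 in the stretch before the start. Smarcd2 stood at 4.06 FPKM in the KO-labelled library and 2.97 FPKM in the wild-type library (a log2 ratio of 0.35), and its counting interval held 0 with the median transcript length. The 3 printed windows do not stand for all members. Phf10, with the most CG (62), had a log2 ratio of 0.10, and Srcap, with 16 CG, had 0.39. Whether the ratio went with the CG count was not tested.

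Of the 3 SMARCD genes, whose products link SWI/SNF to transcription factors, Smarcd1 and Smarcd2 were expressed at like levels and Smarcd3, the form known from heart and skeletal muscle, was low. Smarcd1 stood at 4.82 FPKM in the KO-labelled library and 3.31 FPKM in the wild-type library (a log2 ratio of 0.43), and held 52.7% of the trio's FPKM in the KO-labelled library and 51.3% in the wild-type library. Smarcd3 stood at 0.269 FPKM in the KO-labelled library and 0.173 FPKM in the wild-type library; 48.2% of its annotated exon bases overlap another gene, so even this value is uncertain. The accessory subunits were nearly level. Smarce1, a DNA-bending HMG-domain subunit, stood at 6.88 FPKM in the KO-labelled library and 6.56 FPKM in the wild-type library (0.06), and Actl6a, an actin-related subunit shared with the INO80 class, at 6.19 FPKM in the KO-labelled library and 6.28 FPKM in the wild-type library (-0.02). For both, the counting interval of the plain ratio held 0.

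Subunits that define the form of the complex differed by unequal amounts. Arid1a, the DNA-binding subunit of canonical BAF (ENSMUSG00000007880, chromosome 4, 133679008 to 133756769, minus strand), stood at 3.30 FPKM in the KO-labelled library and 1.83 FPKM in the wild-type library, from about 725 fragments in the KO-labelled and 408 in the wild-type library. Its log2 ratio of 0.61 was the highest of the 35, and the plain ratio of 1.81 had a log2 interval of 0.68 to 1.03. Its alternative Arid1b, under the floor, stood at 0.905 FPKM in the KO-labelled library and 0.544 FPKM in the wild-type library, a plain ratio of 1.66. Arid1a held 78.5% of the pair in the KO-labelled library and 77.1% in the wild-type library, so this choice of subunit was again close to even between libraries. Dpf2, a histone-reading BAF subunit, was nearly level at 9.24 FPKM in the KO-labelled library and 8.38 FPKM in the wild-type library (0.13), and its interval held 0. Dpf3, its relative known from heart and muscle, was at 0.0205 FPKM in the KO-labelled library and 0.0252 FPKM in the wild-type library and rested on about 2 fragments in each, too few for a comparison.

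The PBAF form is marked by Arid2, Pbrm1, Brd7 and Phf10. Arid2, the DNA-binding subunit of PBAF, stood at 3.52 FPKM in the KO-labelled library and 2.71 FPKM in the wild-type library (a log2 ratio of 0.28). Pbrm1, which reads acetylated histones through a row of bromodomains, stood at 2.92 FPKM in the KO-labelled library and 2.27 FPKM in the wild-type library (0.26), and the bromodomain gene Brd7 at 11.04 FPKM in the KO-labelled library and 9.26 FPKM in the wild-type library (0.23). Phf10 stood at 6.50 FPKM in the KO-labelled library and 6.001 FPKM in the wild-type library (0.10), with an interval that held 0. All 4 thus lay above 0 and under the 1.5-fold line. Brd9, which marks the noncanonical form, was one of the most abundant members at 12.3 FPKM in the KO-labelled library and 9.78 FPKM in the wild-type library (0.30).

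Ss18 was the 1 member at least 1.5-fold lower in the KO-labelled library. It encodes a subunit of BAF and noncanonical BAF, known from its fusion to SSX genes in human synovial sarcoma (ENSMUSG00000037013, chromosome 18, 14624198 to 14682914, minus strand). It stood at 4.82 FPKM in the KO-labelled library and 8.13 FPKM in the wild-type library, from about 536 fragments in the KO-labelled and 920 in the wild-type library. The log2 ratio was -0.65, and the plain ratio of 0.593 had a log2 interval of -0.91 to -0.60, so Ss18 was the 1 member of 35 whose interval lay below 0. None of its annotated exon bases overlap another gene. Its paralogue Ss18l1, known from neurons, was low and level, at 0.498 FPKM in the KO-labelled library and 0.515 FPKM in the wild-type library; Ss18 therefore made up 90.6% of the pair in the KO-labelled library and 94.04% in the wild-type library.

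Bcl7b and Bcl7c, small accessory subunits, were also below 0, by small amounts. Bcl7b stood at 5.05 FPKM in the KO-labelled library and 5.66 FPKM in the wild-type library (a log2 ratio of -0.14), and Bcl7c at 3.12 FPKM in the KO-labelled library and 3.25 FPKM in the wild-type library (-0.04). Both intervals held 0, so at this depth neither could be told apart between libraries. Bcl7a was near silent, at 0.0403 FPKM in the KO-labelled library and 0.0367 FPKM in the wild-type library, and rested on about 5 fragments in each.

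**Figure D2:**
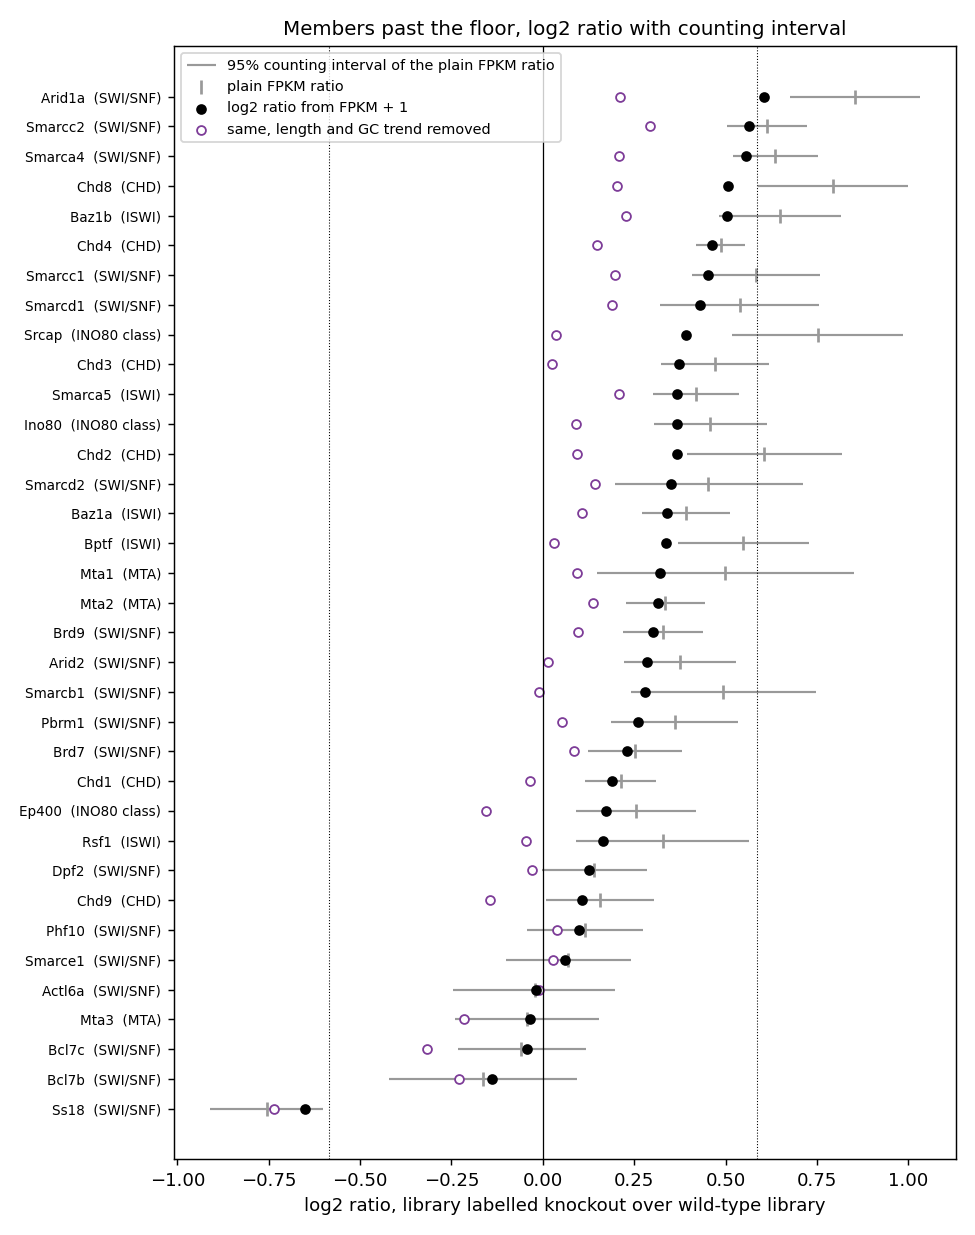
Log2 ratio of the KO-labelled over the wild-type library for the 35 members past the floor, ordered by value, with the family in brackets; black points use FPKM + 1, grey ticks and lines give the plain FPKM ratio with its 95% counting interval, open points have the trend with transcript length and GC removed, and dotted lines mark 1.5-fold. Arid1a lies past the upper line at 0.61 and Ss18 past the lower at -0.65; open points lie left of most black ones and run from -0.74 to 0.29.

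Every CHD gene past the floor was higher in the KO-labelled library (6 of 6, median log2 ratio 0.37); all have transcripts over 5000 bases, a length at which 88.2% of all genes lay above 0. With the trend in length and GC content removed, 4 of the 6 lay above 0, where 49.9% of all genes did. Chd4, a NuRD ATPase, was the most abundant of all 42 genes, at 23.6 FPKM in the KO-labelled library and 16.8 FPKM in the wild-type library. From about 4236 fragments in the KO-labelled and 3074 in the wild-type library, its plain log2 interval was 0.42 to 0.55. That was the narrowest with the longest transcript as the length. With the median length the interval of Chd4 was 0.32 to 0.66, wider than the 0.51 to 0.76 of Smarca4. The log2 ratio of Chd4 was 0.46. Its paralogue Chd3 stood at 4.50 FPKM in the KO-labelled library and 3.25 FPKM in the wild-type library (a log2 ratio of 0.37, about 875 fragments in the KO-labelled and 642 in the wild-type library, plain interval 0.32 to 0.62), and Chd4 held 84.0% of the pair in the KO-labelled library and 83.8% in the wild-type library.

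Chd8, a CHD protein that binds beta-catenin, had the highest ratio of the family. It stood at 2.35 FPKM in the KO-labelled library and 1.36 FPKM in the wild-type library, from about 535 fragments in the KO-labelled and 314 in the wild-type library (a log2 ratio of 0.51, plain interval 0.59 to 0.999). Its relative Chd9 was nearly level, at 2.41 FPKM in the KO-labelled library and 2.17 FPKM in the wild-type library (0.11, plain interval 0.01 to 0.31). The intervals of Chd8 and Chd9 did not overlap with the longest transcript as the length but did with the median one, 0.33 to 1.27 for Chd8 and -0.17 to 0.48 for Chd9. Chd8 held 43.4% of the summed FPKM of Chd7, Chd8 and Chd9 in the KO-labelled library and 34.6% in the wild-type library. Chd7, mutated in human CHARGE syndrome, was under the floor at 0.653 FPKM in the KO-labelled library and 0.399 FPKM in the wild-type library.

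Chd1, which binds methylated histone H3 at active promoters, stood at 8.53 FPKM in the KO-labelled library and 7.36 FPKM in the wild-type library (0.19). Its relative Chd2 stood at 1.89 FPKM in the KO-labelled library and 1.24 FPKM in the wild-type library (0.37, with about 461 fragments in the KO-labelled and 308 in the wild-type library, plain interval 0.39 to 0.82, which held 0 with the median transcript length); 19.3% of the Chd2 exon bases overlap other annotated genes. Chd1 held 81.9% of this pair in the KO-labelled library and 85.6% in the wild-type library.

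MTA genes, which encode the scaffold that joins NuRD's remodelling and deacetylase parts, split by member. Mta2 dominated, at 18.6 FPKM in the KO-labelled library and 14.7 FPKM in the wild-type library (a log2 ratio of 0.32, plain interval 0.23 to 0.44, about 1559 fragments in the KO-labelled and 1257 in the wild-type library). Mta1 stood at 2.17 FPKM in the KO-labelled library and 1.53 FPKM in the wild-type library (0.32, with about 164 fragments in the KO-labelled and 118 in the wild-type library, plain interval 0.15 to 0.85). Mta3 was nearly level at 4.76 FPKM in the KO-labelled library and 4.90 FPKM in the wild-type library (-0.03, with about 419 fragments in the KO-labelled and 439 in the wild-type library, plain interval -0.24 to 0.15). The Mta2 and Mta3 intervals did not overlap with the longest transcript as the length but did with the median one, 0.11 to 0.55 for Mta2 and -0.31 to 0.23 for Mta3. Mta3 held 18.7% of the trio in the KO-labelled library and 23.2% in the wild-type library.

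All 5 ISWI genes were higher in the KO-labelled library, with a median log2 ratio of 0.34. The longest transcript of each is likewise over 5000 bases, a length at which 88.2% of all genes lay above 0. Smarca5, the ISWI ATPase known as SNF2H, stood at 8.32 FPKM in the KO-labelled library and 6.22 FPKM in the wild-type library, from about 1363 fragments in the KO-labelled and 1036 in the wild-type library (a log2 ratio of 0.37, plain interval 0.30 to 0.54). Its partners vary by complex. Baz1b, the partner in the WICH complex, had the highest ratio of the family, at 4.35 FPKM in the KO-labelled library and 2.78 FPKM in the wild-type library (0.50, with about 757 fragments in the KO-labelled and 491 in the wild-type library, plain interval 0.48 to 0.82). Baz1a, the partner in ACF, stood at 7.70 FPKM in the KO-labelled library and 5.87 FPKM in the wild-type library (0.34, with about 1276 fragments in the KO-labelled and 989 in the wild-type library, plain interval 0.27 to 0.51, which held 0 with the median transcript length). Baz1a was the more abundant of the pair in both, with 63.9% in the KO-labelled library and 67.9% in the wild-type library. Bptf, the large subunit of NURF, stood at 1.92 FPKM in the KO-labelled library and 1.31 FPKM in the wild-type library (0.34, with about 620 fragments in the KO-labelled and 431 in the wild-type library, plain interval 0.37 to 0.73). Rsf1, the partner in RSF, stood at 1.11 FPKM in the KO-labelled library and 0.888 FPKM in the wild-type library (0.16).

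The 3 ATPases of the INO80 class were higher too, with a median log2 ratio of 0.37, and their longest transcripts too are over 5000 bases. Ino80, the nucleosome-sliding member, stood at 4.75 FPKM in the KO-labelled library and 3.46 FPKM in the wild-type library, from about 808 fragments in the KO-labelled and 598 in the wild-type library (0.37, plain interval 0.30 to 0.61). Srcap, which deposits a variant of histone H2A, stood at 1.41 FPKM in the KO-labelled library and 0.836 FPKM in the wild-type library (0.39, with about 402 fragments in the KO-labelled and 243 in the wild-type library, plain interval 0.52 to 0.99). The exons of Srcap overlap other annotated genes over 65.0% of their bases, and no strand marking is described in the protocol, so its reads may be shared. Ep400, the ATPase of the TIP60 complex, was the closest, at 2.32 FPKM in the KO-labelled library and 1.95 FPKM in the wild-type library (0.17, with about 664 fragments in the KO-labelled and 566 in the wild-type library, plain interval 0.09 to 0.42, which held 0 with the median transcript length).

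**Figure D3:**
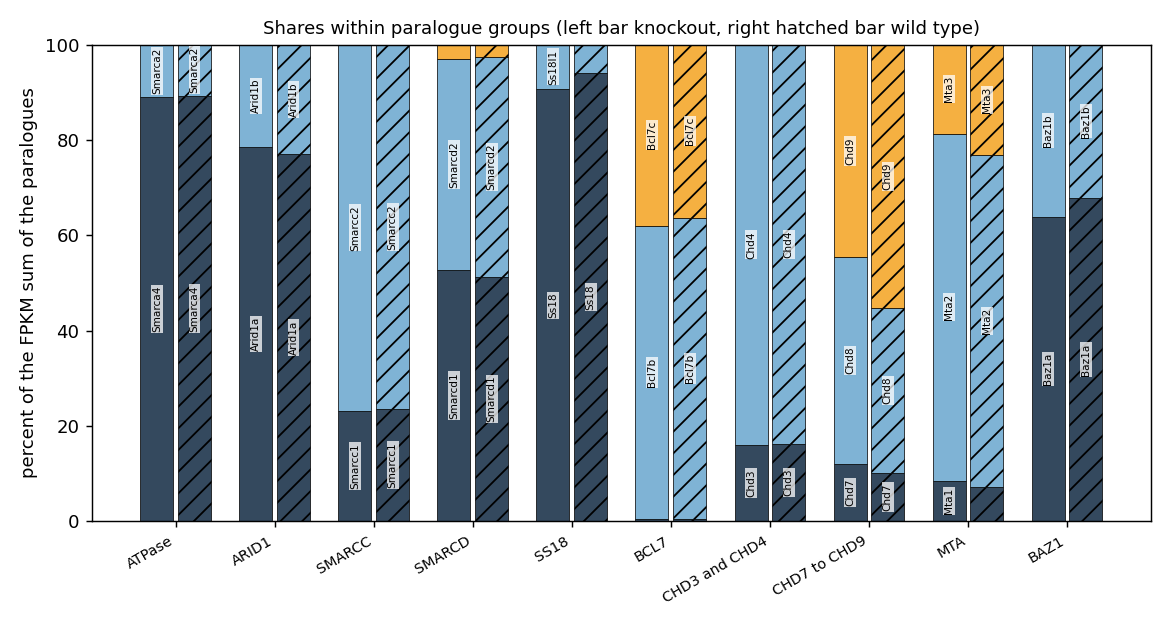
Share of each gene in the summed FPKM (percent) of its paralogue group, with the KO-labelled library as the left bar and the wild-type library as the right, hatched bar of each pair; segments are labelled where wide enough. Most pairs of bars are nearly alike, as for Smarca4 (89.03% in the KO-labelled library and 89.2% in the wild-type library), and the widest gap is in the group of Chd7, Chd8 and Chd9, where Chd9 made up 44.6% in the KO-labelled library and 55.2% in the wild-type library.

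The ratio of a remodeller gene went with the length of its transcript, as it did over all genes. Genes past the floor were ranked by their longest annotated transcript and put into 10 classes of equal size. The median log2 ratio of all genes was -0.23 in the shortest class (132 to 1200 bases), 0.10 in the fifth (2662 to 3093 bases) and 0.29 for the longest genes, of 6249 to 123179 bases. By this measure the remodeller genes are long: 17 of the 35 fell in the longest class and 21 in the longest 2. For some members the median of the annotated transcripts is far shorter. It is 1076 bases for Chd4 (longest 6697) and 1641 bases for Smarcb1 (longest 7441). The 21 members with a transcript of at least 5000 bases had a median log2 ratio of 0.37, with 20 of them above 0 (95.2%), where all 1679 genes of that length had a median of 0.27 and 88.2% above 0. The 14 shorter members had a median of 0.18, with 10 above 0 (71.4%), where all 7337 shorter genes had a median of 0.06 and 57.5% above 0. Set against the median of its own length class, 20 members lay above and 15 below, where all genes split into 4506 above and 4506 below. The median of these differences was 0.08.

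With the trend in length and GC content removed over all genes, the median of the 35 members was 0.05, against 0.32 before. Of the members 24 then lay above 0 and 11 below, where 49.9% of all genes lay above 0. Smarcc2 (0.29), Baz1b (0.23), Arid1a (0.21), Smarca4 (0.21), Smarca5 (0.21) and Chd8 (0.20) were then the 6 highest. Ss18 (-0.74) was the lowest by a wide gap, followed by Bcl7c (-0.32). The value of Bcl7c depends on the length used: its ratio before was -0.04. It was placed by its longest transcript of 6235 bases, whereas the median of its annotated transcripts is 785 bases. In the INO80 class Ino80 stood at 0.09, Srcap at 0.04 and Ep400 at -0.16. Arid1a was then no longer 1.5-fold apart, and Ss18 still was. The spread of the members also narrowed, with an SD over the 35 genes of 0.24 before and 0.19 after. Over all genes the SD was 0.36 before and 0.32 after. Transcript length thus moved with the ratios, while GC content was removed after length and was not described alone. Whether either accounts for the ratios was not tested.

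**Figure D4:**
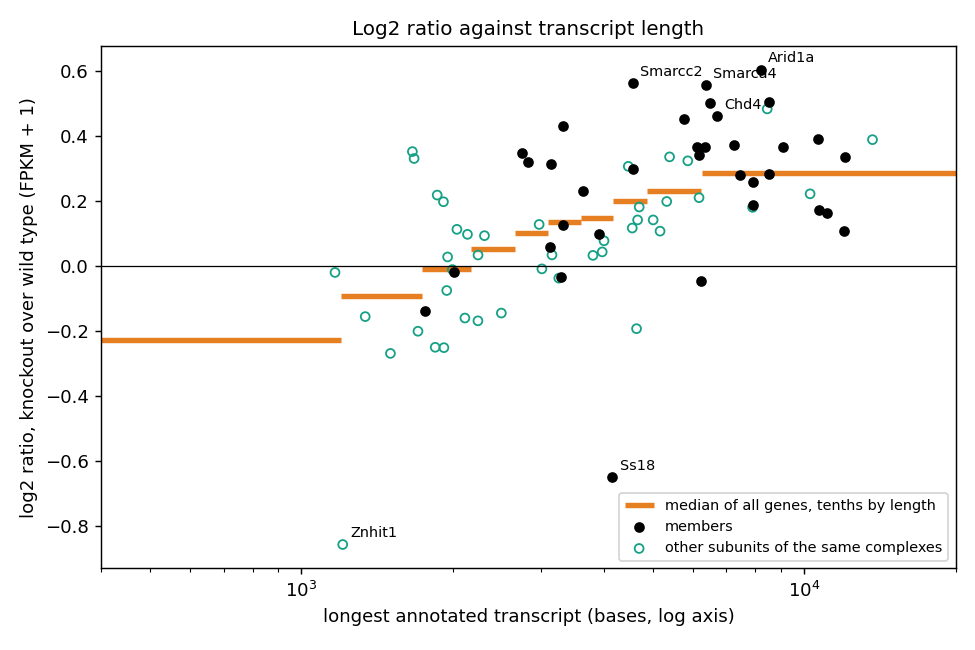
Log2 ratio of the KO-labelled over the wild-type library (FPKM + 1) against the longest annotated transcript in bases (log axis). Black points are the 35 members and open points 43 other remodeller genes, most of them for subunits of the same complexes. Orange bars are the median of all genes in 10 length classes, the first of which starts left of the axis at 132 bases. The bars climb with length and most points follow them, with Ss18 at -0.65 and Znhit1 at -0.86 far below their classes.

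Among the 35 members the interval of the plain ratio lay above 0 for 27 (77.1%, against 43.0% of 9016 genes) and below 0 for 1 (2.86%, against 20.4%). In the remaining 7 the libraries could not be told apart at this depth: Actl6a, Bcl7b, Bcl7c, Dpf2, Mta3, Phf10 and Smarce1. These counts use the longest transcript. With the median length the interval also held 0 for Smarcb1 (-0.06 to 1.04), Brd7 (-0.06 to 0.57) and Rsf1 (-0.15 to 0.82). The same was true of Smarcd2, Chd2, Chd9, Baz1a and Ep400. All genes of at least 5000 bases had an interval above 0 in 75.3% of cases, and the members of that length in 95.2% (20 of 21). In plain FPKM, 7 members past the floor were at least 1.5 times higher in the KO-labelled library: Arid1a, Chd8, Srcap, Baz1b, Smarca4, Smarcc2 and Chd2. On this scale 10.9% of all genes past the floor were that much higher.

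Other remodeller genes, called other subunits here, lay nearer to the middle of all genes. Most encode subunits of the same complexes, but Smarcad1, Hells, Chd1l and Atrx are related ATPase genes grouped by family only. Of 55 listed, 43 passed the floor, with a median log2 ratio of 0.09, close to the 0.10 of all genes. Of these, 28 lay above 0 (65.1%, against 63.2% of all genes) and 15 below. None was at least 1.5-fold higher, where 4.7% of all genes were. At least 1.5-fold lower was 1 (2.33%, against 2.8% of all genes). These subunits were shorter, with a median longest transcript of 2970 bases against 6235 for the members. The 10 of at least 5000 bases had a median of 0.22 and all lay above 0, as did 88.2% of all genes of that length. The 33 shorter ones had a median of 0.03. Both directions occurred in every family group. Above 0 were 2 of 3 measured genes under SWI/SNF, 3 of 6 under ISWI, 4 of 6 under CHD and NuRD and 19 of 28 under the INO80 class. The 2 under SWI/SNF were Smarcad1 and Hells, while Actb, a SWI/SNF subunit gene, lay below 0.

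Znhit1, a small zinc-finger subunit of the SRCAP complex (ENSMUSG00000059518, chromosome 5, 136982164 to 136988021, minus strand), was the 1 of these 43 subunits past the 1.5-fold line. It stood at 17.0 FPKM in the KO-labelled library and 31.6 FPKM in the wild-type library, from about 549 fragments in the KO-labelled and 1039 in the wild-type library. The log2 ratio was -0.86 and the plain log2 interval -1.05 to -0.75, and it stayed at -0.88 with the length and GC trend removed. Of its exon bases, 28.4% overlap Plod3 on the opposite strand. Its partner ATPase gene Srcap lay on the other side of 0, at 0.39.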

How the data were processed

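Polyadenylated RNA of 2 libraries was sequenced as paired-end TruSeq libraries, per the labels' protocols. The authors deposited 1 FPKM value per Ensembl gene and library, per the file headers. Tools named in the submitters' processing notes are HISAT2 2.0.4, StringTie 1.3.0 and edgeR, with the builds GRCm38.p4 and mm10; the sources used here do not give their roles, the annotation or any filter. Because FPKM is scaled by gene length and library size, a few abundant genes can move all other values.

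Symbols, coordinates and transcript lengths came from GENCODE M21 (GRCm38); 34267 of 34745 IDs had a symbol. For genes with 1 transcript, the product of FPKM and length was a whole multiple of 1 step (within 0.02 of a fragment, for 92.6% of 1518 low genes in the KO-labelled and 92.2% of 1456 in the wild-type library), which gave the depth. Fragments used the longest transcript, and exact Clopper-Pearson 95% intervals of the plain ratio cover counting error only. Log2 ratios used FPKM + 1 and a floor of a mean of 1 FPKM. The trend was removed as the median in 20 bins of length and then of GC content. Calculations used Python 3.11.15, numpy 2.4.6, pandas 2.3.3 and scipy 1.17.1 and were tested on simulated data.

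The members, lists and thresholds were chosen with earlier results of these data known. All members are named; intervals are given for Smarca4, Smarca2, Smarca5, Chd4 and Ino80 and for the 4 members of each family with the largest log2 ratio in either direction. Of the other subunits, those at least 1.5-fold apart are named with their values, and Actb, Smarcad1, Hells, Chd1l and Atrx are named for their grouping. The sex-linked genes, the Chd9 interval and the printed promoters were picked with the values in view. Alternatives were other pseudocounts, scalings and floors, removal of the trend, and, added after the data were seen, the median transcript length for the intervals.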

Additional observations from a re-analysis of the deposited data

How the results depend on the processing

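No paired analysis was possible because each group holds 1 library. No setting turned Arid1a or Ss18 to the other side of 0, and no member was 2-fold apart in any of the 8 planned settings. With a pseudocount of 0.1, 6 members and 2 other subunits were at least 1.5-fold higher (9.91% of all genes, against 4.70% with a pseudocount of 1), and the median was 0.39 over members, 0.45 in the INO80 class and 0.33 for MTA genes. With a pseudocount of 5, 0 members were 1.5-fold higher and 0 lower (1.04% and 1.41% of all genes), with medians of 0.14 over members and 0.13 in the INO80 class. Scaling to a median of 0 (KO-labelled values times 0.915) left 0 members 1.5-fold higher (2.55% of all genes) and put the median of members at 0.20 and of the other subunits at -0.0233; equal upper quartiles left 0 (2.40%) and put them at 0.196 and -0.0356. Equal FPKM totals gave 3 members higher and 0 lower (7.38% and 2.16% of all genes), with medians of 0.39 over members, 0.45 in the INO80 class, 0.39 for MTA genes and 0.17 for the other subunits. At a floor of 5 FPKM, 0 members were 1.5-fold higher (3.98% of all genes), 12 of the 15 members and 13 of the 23 other subunits left lay above 0 (54.8% of all genes), and the SWI/SNF median was 0.11. After removal of the trend with length and GC, 0 members were 1.5-fold higher (2.54% of all genes). The medians were then 0.0515 over members, 0.0454 in SWI/SNF, 0.0590 in CHD, 0.11 in ISWI, 0.0360 in the INO80 class, 0.0940 for MTA genes and -0.0412 for the other subunits. Of the other subunits 15 lay above 0, where 49.9% of all genes did. Single members changed sign in 6 of 35 cases with the trend removed, in 2 of 42 with a median of 0, and in 4 of 42 with equal totals and with equal upper quartiles. With the median transcript length, which gives fewer fragments, 21 of the 42 intervals lay above 0 against 30, and 1 lay below 0 in both. These counts include the members under the floor, unlike the 27 of 35 given above. The share of all genes with the median length is not given here, so the 21 has no background. The cause of these shifts was not tested. Dpf3 and Bcl7a, with about 2 and 5 fragments in each library, could not be compared at this depth, and a median over so few genes in a family moves with single members.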
